A study of Mus musculus with 8 samples.

Results

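The 10 genes described here encode the ILK, PINCH, parvin and kindlin complex of integrin adhesions. They are the integrin-linked kinase gene Ilk, the PINCH genes Lims1 and Lims2, the parvin genes Parva, Parvb and Parvg, the Ras suppressor gene Rsu1, and the kindlin genes Fermt1, Fermt2 and Fermt3. They are 10 of the 55401 genes in the deposited table, and were chosen by the measured level of Parvb, which was much lower in NG2/CSPG4 knockout cells than in wild type cells. The difference between genotypes therefore chose the set, and the members' own differences are given as a description, without p-values.

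The study asked what loss of NG2/CSPG4, a transmembrane proteoglycan that binds pericellular type VI collagen, changes in cartilage of the jaw joint. Poly(A) RNA was sequenced from primary fibrochondrocytes of the mandibular condylar cartilage, grown in AMEM with serum and without further treatment to passage 4, in 4 libraries from knockout mice (NG2ko) and 4 from wild type mice (WT). The WT mice were C57BL/6J. The NG2ko mice were homozygous for a reporter-tagged deletion allele of Cspg4 with a LacZ cassette, made by crossing a knockout-first allele with a Cre line. The study calls the resulting line a global knockout. That line came from a 6N background and was backcrossed to C57BL/6J for 3 generations, so an effect of the deletion and of donor genome that remained cannot be told apart. The labels give pups of 10 to 14 days and the sequencing methods give 14 days for both genotypes. The study calls the libraries biological replicates, but whether each came from 1 pup or from a pool is not stated in the sources used here.

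Total counts were 60317187 to 83668935 per library. Cspg4 itself (chr9:56865033-56899870) had 6.94 to 13.5 CPM, the unit of counts scaled to library depth, in the NG2ko libraries and 201 to 241 CPM in the WT libraries, which matches the labels. Fibroblast collagens and cartilage genes were both detected, with a summed level of 12 chondrocyte markers of 1271 to 1555 CPM in NG2ko and 901 to 1182 CPM in WT. The collagen gene Col11a1 made up most of that sum, at 870 to 1127 CPM in NG2ko and 638 to 885 CPM in WT. Col2a1 had 82.4 to 96.9 CPM in NG2ko and 45.0 to 52.9 CPM in WT. The 15 myeloid markers summed to 348 to 405 CPM in NG2ko and 100.7 to 121 CPM in WT, and none of them was at 0 in every library. Most of this sum was Lyz2, at 259 to 306 CPM in NG2ko and 72.7 to 90.9 CPM in WT. The 4 Y-linked genes examined summed to 188 to 202 CPM in NG2ko and 0 to 0.286 CPM in WT, whereas Xist had 0.197 to 3.30 CPM in NG2ko and 102 to 210 CPM in WT, so genotype and the sex of the pups cannot be told apart. In bulk RNA, fewer cells of a type and less RNA per cell cannot be told apart either.

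Integrins carry no enzyme of their own and signal through proteins that gather on their cytoplasmic tails. ILK, a pseudokinase that works as a scaffold, binds a PINCH protein through its ankyrin repeats and a parvin through its kinase-like domain, and this trio links integrins to actin. The parvins bind actin directly, RSU1 attaches to PINCH1, and the kindlins bind both ILK and the integrin beta tail, where they act with talin to switch integrins on. Paralogs replace one another within the trio, so that an ILK molecule carries a single PINCH and a single parvin.

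The members differ in the sequence before their transcription starts, and 3 examples are shown: Parvb, the gene for which the set was chosen, Fermt2, the kindlin with the highest level in these cells, and Fermt3, the kindlin of blood cells. Each is the 250 bases before the start listed by RefSeq on GRCm38.p6, written 5′ to 3′ on the strand of the gene, with matches to GGGCGG or its reverse complement CCGCCC, the core of the GC box bound by Sp1, in capitals. Parvb lies on the plus strand at chr15:84231793-84232042, Fermt2 on the minus strand at chr14:45530066-45530315, and Fermt3 on the minus strand at chr19:7019470-7019719.
Parvb: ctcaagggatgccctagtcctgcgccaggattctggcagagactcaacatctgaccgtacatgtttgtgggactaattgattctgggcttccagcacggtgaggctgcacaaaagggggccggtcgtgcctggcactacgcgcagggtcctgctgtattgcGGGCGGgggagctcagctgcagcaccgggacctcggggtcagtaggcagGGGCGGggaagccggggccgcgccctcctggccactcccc
Fermt2: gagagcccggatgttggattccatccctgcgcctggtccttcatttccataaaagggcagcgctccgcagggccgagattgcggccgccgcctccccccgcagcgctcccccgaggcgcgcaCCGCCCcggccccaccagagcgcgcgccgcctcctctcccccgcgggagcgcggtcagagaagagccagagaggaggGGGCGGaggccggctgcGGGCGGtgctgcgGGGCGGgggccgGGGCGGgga
Fermt3: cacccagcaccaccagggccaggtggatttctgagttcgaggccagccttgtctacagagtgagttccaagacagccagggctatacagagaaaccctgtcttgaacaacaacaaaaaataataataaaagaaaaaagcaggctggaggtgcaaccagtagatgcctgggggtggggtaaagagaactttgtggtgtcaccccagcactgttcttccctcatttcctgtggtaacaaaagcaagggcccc

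The Fermt2 window held 31 CpG pairs and 5 matches to GGGCGG, the Parvb window held 15 CpG pairs and 2 matches, at positions -89 and -40 from the start, and the Fermt3 window held 1 CpG pair and no match. Across the 32851 RefSeq promoters of the same length, the median was 6 CpG pairs, and 32.7% held at least 1 match on either strand, with overlapping matches counted. Entries were matched for 8 of the 10 members, with 12 listed starts. The motif GGAATG, read by TEAD factors, was found in 0 of those 12 windows and in 12.6% of all promoters. A CArG box, read by serum response factor, was found in 1 of the 12, that of Fermt2 at position -204, and in 1.47% of all promoters. These are matches of letters and show no binding. No member shared a 50-base stretch of annotated transcript with another member, so a read of that length would belong to 1 paralog alone.

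Among the 8 members that had enough counts to be tested, Parvb and Parva were lower in NG2ko, Lims1 was higher, and these 3 passed the call used for all genes, an adjusted p under 0.05 in edgeR's quasi-likelihood test. That is 1 member higher and 2 lower. Of all 17190 genes tested, 12.2% were called, 5.45% higher and 6.75% lower, and nothing is read from the members' count because Parvb chose them. The CPM ranges of the 2 genotypes did not overlap for 4 members, Parvb and Parva lower in NG2ko and Lims1 and Fermt3 higher, against 19.9% of all genes tested, 10.1% lower and 9.81% higher. The tested members divided into 4 with a positive and 4 with a negative log2 fold change (NG2ko over WT), with a median of 0.02 beside 0.02 for all genes. Parvg and Fermt1 had too few counts to be tested.

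The WT libraries gave an order of levels that did not rest on the genotype difference, in FPKM, the authors' values scaled to both transcript length and library size, which allow genes to be compared. Ilk stood first with a median of 66.6 FPKM (58.5 to 67.9), followed by Fermt2 at 48.7 (45.1 to 50.8), Parva at 33.6 (32.7 to 34.6), Lims1 at 29.7 (26.7 to 30.9) and Rsu1 at 14.9 (12.2 to 17.6). The ranges of these 5 genes did not overlap between neighbours, and all 5 stood above the 82nd percentile of the genes tested. The order depends on the transcript lengths used. In CPM, Parva had the highest WT mean, 383, above Fermt2 at 281 and Ilk at 200. Parvb at 2.54 FPKM (2.37 to 2.57) and Lims2 at 2.21 FPKM (2.09 to 2.49) came next and overlapped each other, near the middle of the genes tested, at percentiles 46.8 and 44.5. Fermt3 had 0.0709 FPKM (0.0430 to 0.158), Parvg a median of 0.00915 FPKM, and Fermt1 was listed at 0.

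**Figure D1:**
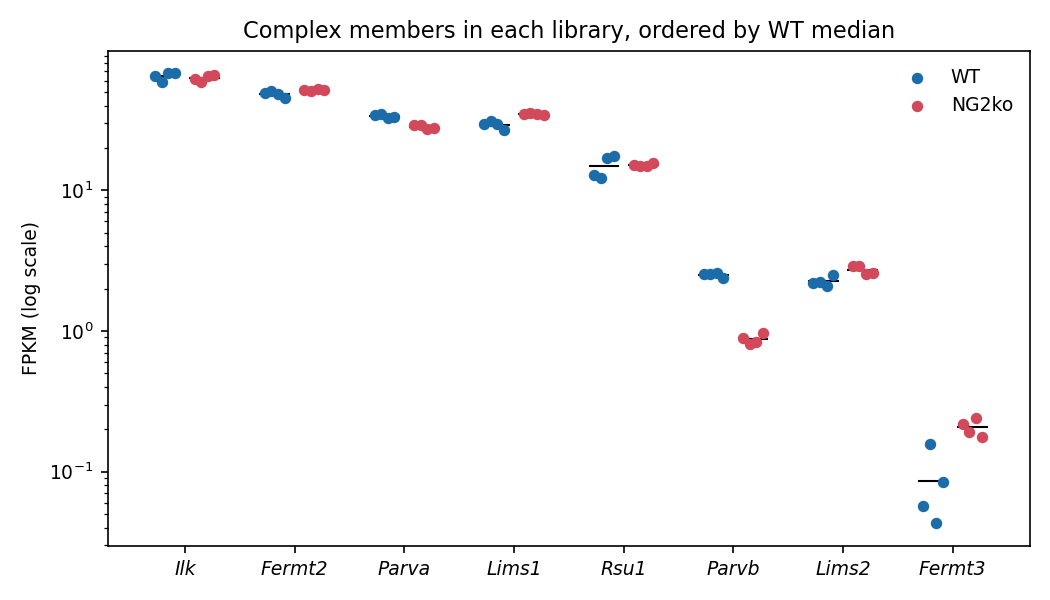
FPKM of 8 members in each of the 4 WT (blue) and 4 NG2ko (red) libraries on a log axis, with a line at each mean. Parvb sits at 2.37 to 2.57 in WT, beside Lims2, and at 0.808 to 0.969 in NG2ko, below it.

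In NG2ko the same order held except at 2 places. Lims1 at a median of 34.7 FPKM (34.1 to 35.5) stood above Parva at 28.4 FPKM (27.2 to 29.0), and Lims2 at 2.74 FPKM (2.54 to 2.91) stood above Parvb at 0.862 FPKM (0.808 to 0.969). In both pairs the ranges did not overlap in NG2ko.

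Ilk (ENSMUSG00000030890, chr7:105736592-105742925, plus strand), the scaffold at the centre of the complex, had 186, 179, 197 and 194 CPM in NG2ko replicates 1 to 4 and 201, 181, 206 and 211 CPM in WT replicates 1 to 4. The genotypes overlapped, and the difference was within the spread of the libraries. NG2ko averaged 189 ± 8.16 CPM and WT 200 ± 13.2 CPM (SD, n = 4 each), with a log2 fold change of -0.08 (standard error 0.06), and Ilk was not called. The level of Ilk is uncertain, because the gene overlaps Taf10 on the opposite strand by 3533 bases and Rrp8 by 794 bases. Of its 3069 transcript stretches of 50 bases, 69.3% also occurred, on either strand, in transcripts of other genes, mainly Taf10. The libraries were made by a stranded protocol, but whether the counting used strand is not given in the sources used here. Taf10, a subunit of general transcription complexes, had 53.5 CPM in WT and 54.7 CPM in NG2ko.

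Lims1 (chr10:58323466-58424691, plus strand) encodes PINCH1, the widely expressed adaptor that joins ILK to RSU1 and to the adaptor NCK2. Its levels were 194, 200, 196 and 189 CPM in the NG2ko libraries and 171, 179, 169 and 155 CPM in the WT libraries. All NG2ko libraries lay above all WT libraries. The log2 fold change was 0.21 (standard error 0.05), or 116% of WT. The difference kept its direction in all 14 alternative analyses, but Lims1 was no longer called when NG2ko replicate 1 (0.21), 2 (0.20) or 3 (0.21) or WT replicate 1 (0.22) or 3 (0.21) was left out.

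Lims2 (chr18:31922290-31958518, plus strand), which encodes the second PINCH, had 9.68, 9.80, 8.54 and 8.55 CPM in NG2ko and 7.61, 7.68, 7.11 and 8.64 CPM in WT. WT replicate 4 lay inside the NG2ko range. The log2 fold change was 0.24 (standard error 0.10), close in size to that of Lims1 but with a larger error, and Lims2 was not called. Lims2 made up 7.29 ± 0.427% of the summed PINCH FPKM in NG2ko and 7.18 ± 0.902% in WT (SD, n = 4), so the split between the paralogs differed by less than the spread.

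Parvb (ENSMUSG00000022438, chr15:84232043-84315688, plus strand) encodes beta-parvin, an actin-binding parvin known from heart and skeletal muscle that also binds the exchange factor alpha-PIX. Its levels were 4.29, 3.95, 4.05 and 4.64 CPM in the NG2ko libraries, and 12.6, 12.6, 12.5 and 11.9 CPM in the WT libraries. The groups lay far apart, with little variation inside each of them. The counts behind these levels were 266 to 346 per library in NG2ko and 748 to 1041 in WT. The means were 4.23 ± 0.307 (SD, n = 4) and 12.4 ± 0.364 (SD, n = 4), which put NG2ko at 34.1% of WT, with a log2 fold change of -1.55 (standard error 0.09). By log2 fold change it ranked 38 of the 1160 genes called lower, which is a description only, since this fall chose the set. Across every alternative, including each library left out in turn, the log2 fold change stayed between -1.60 and -1.52. Of its 4413 transcript stretches of 50 bases, 0.159% also occurred in other genes.

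Parva (chr7:112427505-112591692, plus strand), which encodes alpha-parvin, the broadly expressed paralog that restrains contraction in smooth muscle, had 321, 323, 303 and 306 CPM in NG2ko and 390, 396, 367 and 379 CPM in WT. It was thus lower in every NG2ko library, by a smaller factor than Parvb, at 81.8% of WT. The log2 fold change was -0.29 (standard error 0.05) and lay between -0.31 and -0.27 in all alternatives, with the call kept in each. On the FPKM scale the summed parvins had 29.2 ± 0.887 in NG2ko and 36.2 ± 0.989 in WT (SD, n = 4). Of that difference of 6.99 FPKM, Parva accounted for 5.37 FPKM and Parvb for 1.63 FPKM, since Parva was the more abundant gene.

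**Figure D2:**
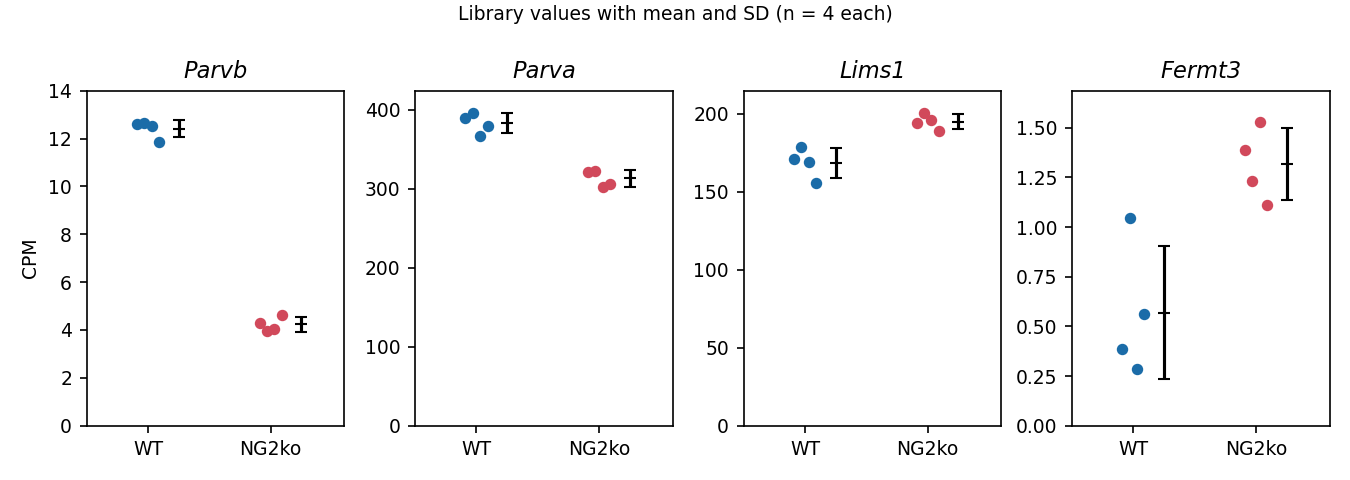
CPM of the 4 members whose genotypes did not overlap, with 1 point per library and the mean and SD (n = 4) beside the points, each panel on its own axis from 0. Parvb was at 34.1% of WT, Parva at 81.8%, Lims1 at 116% and Fermt3 at 229%.

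The make-up of the parvin family is given as a description, since the level of Parvb that chose the set also sets its share. Parvb was 2.97, 2.71, 2.97 and 3.35% of summed parvin FPKM in the NG2ko libraries and 6.90, 6.84, 7.28 and 6.71% in the WT libraries. The means were 3.001 ± 0.264% and 6.93 ± 0.243% (SD, n = 4), and with any library left out they stayed within 2.88 to 3.10% and 6.82 to 7.004%. Parva FPKM exceeded Parvb FPKM 13.4-fold in WT and 32.3-fold in NG2ko. For comparison, Lims1 exceeded Lims2 13.0-fold in WT and 12.7-fold in NG2ko.

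Parvg (chr15:84324026-84342942, plus strand) encodes gamma-parvin, the paralog of blood cells, and starts 8338 bases beyond the end of Parvb. It had 6, 12, 0 and 7 counts in NG2ko replicates 1 to 4 and 4, 0, 10 and 0 counts in WT replicates 1 to 4. With 25 counts in NG2ko and 14 in WT, and none in 3 of the 8 libraries, Parvg was too low for a comparison and was not tested.

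Rsu1 (chr2:13076821-13271415, minus strand), the leucine-rich repeat partner of PINCH1, had 153, 153, 152 and 158 CPM in NG2ko but 133, 128, 175 and 185 CPM in WT. The WT libraries divided into replicates 1 and 2 below and replicates 3 and 4 above every NG2ko library. The coefficient of variation was 18.9% in WT and 2.60% in NG2ko. The log2 fold change of -0.01 (standard error 0.12) changed sign with the analysis, reaching 0.05 without WT replicate 3 and 0.08 without WT replicate 4. No direction can be given for Rsu1.

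Of the kindlins, Fermt2 (chr14:45458795-45530118, minus strand), which encodes the kindlin of mesenchymal cells, had 293, 289, 297 and 291 CPM in NG2ko and 284, 296, 278 and 265 CPM in WT. The genotypes overlapped. The log2 fold change was 0.06 (standard error 0.05), and Fermt2 was not called. It supplied 99.6 ± 0.0525% of kindlin FPKM in NG2ko and 99.8 ± 0.0990% in WT (SD, n = 4).

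Fermt3 (chr19:6998958-7019469, minus strand), the kindlin of platelets and white blood cells, was low but detected, with 1.39, 1.23, 1.53 and 1.11 CPM in NG2ko and 0.387, 1.04, 0.286 and 0.560 CPM in WT. These came from 78 to 124 counts per NG2ko library and 20 to 86 per WT library, and 89 bases of the gene overlap Trpt1 on the opposite strand, a gene with 4.97 CPM in NG2ko and 3.94 CPM in WT. Every NG2ko library was above every WT library, though only narrowly above WT replicate 2. The log2 fold change was 1.20 (standard error 0.38), which was not called, whereas it was called with DESeq2 (1.19), with limma-voom (1.31) and without WT replicate 2 (1.68). Of the 15 myeloid markers, 12 were called higher in NG2ko (80.0%) and 0 lower by edgeR's quasi-likelihood test (at an unadjusted p under 0.05, 14 and 0). Of all genes tested, 5.45% were called higher and 6.75% lower. WT replicate 2, the WT library highest in Fermt3, had the lowest myeloid sum of the WT libraries, 100.7 CPM against 115 to 121 CPM. These sums were mostly Lyz2, which had 72.7 to 90.9 CPM in WT, so their order largely reflects 1 gene. The 5 platelet markers summed to 6.13 to 7.16 CPM in NG2ko and 5.93 to 8.76 CPM in WT, with Gp9 at 0. The part of myeloid RNA in the Fermt3 difference was not tested.

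Fermt1 (chr2:132904389-132945906, minus strand), the kindlin of epithelia, had 0 counts in each of the 8 libraries, which allows up to 0.00522 CPM over all of them, for counting error only. Of the 7 epithelial markers, 3 were also at 0 in every library, Krt14, Krt8 and Cldn4. Krt5, Epcam and Krt18 had 22, 4 and 4 counts over all libraries. Cdh1 was detected, at 1.80 to 2.90 CPM in NG2ko and 1.37 to 2.23 CPM in WT.

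The balance between the arms of the complex is given, likewise as a description, on summed FPKM within each library. The PINCH sum was 31.5 ± 1.64 in WT and 37.5 ± 0.728 in NG2ko (SD, n = 4), while the parvin sum was lower in NG2ko as given above. The ratio of PINCH to parvin was 1.25, 1.29, 1.33 and 1.27 in NG2ko and 0.865, 0.891, 0.902 and 0.826 in WT. On the FPKM scale, PINCH thus exceeded parvin in every NG2ko library and was below it in every WT library. This crossing rests on the transcript lengths used. In CPM, which are not scaled to length, Lims1 was below Parva in both genotypes. Their means were 195 and 313 CPM in NG2ko and 168 and 383 CPM in WT. The ratio of Ilk to parvin was 1.99 to 2.33 in NG2ko and 1.57 to 1.92 in WT, without overlap. The ratio of Ilk to PINCH was 1.54 to 1.79 in NG2ko and 1.77 to 2.32 in WT, and that of kindlin to Ilk was 0.823 ± 0.0293 and 0.750 ± 0.0875 (SD, n = 4), and both overlapped. These ratios are of RNA, and say nothing of how many protein complexes were present.

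**Figure D3:**
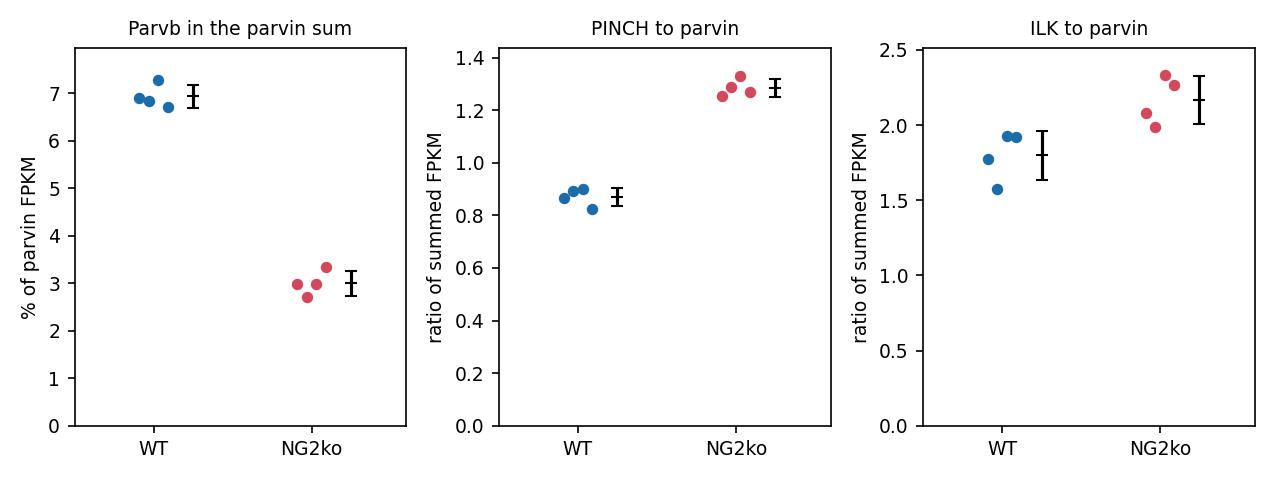
Parvb as a percentage of parvin FPKM, and the ratios of PINCH to parvin and of Ilk to parvin FPKM, with 1 point per library and the mean and SD (n = 4) beside the points, on axes from 0. Mean Parvb share was 6.93% in WT and 3.001% in NG2ko, and the mean ratio of PINCH to parvin was 0.871 in WT and 1.28 in NG2ko.

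The proteins that bind these members were examined through a list of 17 genes, all of them tested. Of these, 2 were called higher in NG2ko (11.8%) and 3 lower (17.6%), beside 5.45% and 6.75% of all genes, and 12 had a negative log2 fold change, with a median of -0.11 beside 0.02 for all genes. Talin 2, Tln2, which links integrin tails to actin beside the kindlins, fell from 90.5 ± 9.51 to 69.2 ± 5.29 CPM (SD, n = 4; log2 fold change -0.39, standard error 0.08, adjusted p = 0.0146), and this call was kept in every alternative, with adjusted p from 0.000863 to 0.0458. Paxillin, Pxn, the adaptor that parvins and kindlins bind, fell from 52.1 ± 3.18 to 43.8 ± 2.82 CPM (-0.25 on the log2 scale, standard error 0.07, adjusted p = 0.0353). Arhgap31, the Rac and Cdc42 inhibitor bound by alpha-parvin, fell from 77.5 ± 5.65 to 63.5 ± 5.16 CPM (-0.29 on the log2 scale, standard error 0.07, adjusted p = 0.0308).

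The partners that rose were Arhgef6, the X-linked gene of the beta-parvin partner alpha-PIX, from 47.7 ± 2.75 to 57.2 ± 3.47 CPM (SD, n = 4; log2 fold change 0.26, standard error 0.06, adjusted p = 0.0253), and leupaxin, Lpxn, a paxillin relative best known from blood cells, from 0.580 ± 0.0969 to 1.28 ± 0.307 CPM (1.14 on the log2 scale, standard error 0.27, adjusted p = 0.0198). Arhgef6 lies on the X chromosome, and genotype and the sex of the pups cannot be told apart here. The myeloid sums above, which were mostly Lyz2, were higher in NG2ko, as was Lpxn. The part of sex in the Arhgef6 difference and of myeloid RNA in the Lpxn difference was not tested. The calls of Pxn (adjusted p 0.00951 to 0.096), Arhgap31 (0.00812 to 0.0883), Arhgef6 (0.00913 to 0.0783) and Lpxn (0.00274 to 0.0598) were each lost in some of the alternatives, the ranges being those over all alternatives. Pxn was lost without NG2ko replicate 1, 2 or 4 or WT replicate 1 or 4, and Arhgap31 without NG2ko replicate 1, 3 or 4 or WT replicate 1 or 2. Arhgef6 was lost without NG2ko replicate 2, 3 or 4 or WT replicate 3 or 4, and Lpxn without NG2ko replicate 1, 2 or 4. The partners called higher then numbered 0 without NG2ko replicate 2 or 4 (2 at an unadjusted p under 0.05 in each), and those called lower 1 without NG2ko replicate 1 or 4 or WT replicate 1.

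The remaining 12 partners did not pass. The integrin genes had log2 fold changes of -0.12 for Itgb1 and -0.18 for Itgb3, and talin 1, Tln1, had -0.18, which among the alternatives was called when WT replicate 3 was left out (-0.24, adjusted p = 0.0496). The alpha-actinin genes Actn1 and Actn4, which cross-link actin, had -0.11 and -0.13, and the beta-PIX gene Arhgef7 had -0.10. Nck2, the PINCH1 partner, had 0.10, Ilkap, the phosphatase that binds ILK, 0.13, Tgfb1i1, the paxillin relative Hic-5, 0.10, and Tesk1, the kinase bound by alpha-parvin, -0.06. The X-linked thymosin gene Tmsb4x had -0.09. The kindlin partner migfilin, Fblim1, had -0.17 with 1 low library in each group, NG2ko replicate 2 at 9.05 CPM and WT replicate 4 at 10.4 CPM, while the others had 21.1 to 26.1 CPM.

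**Figure D4:**
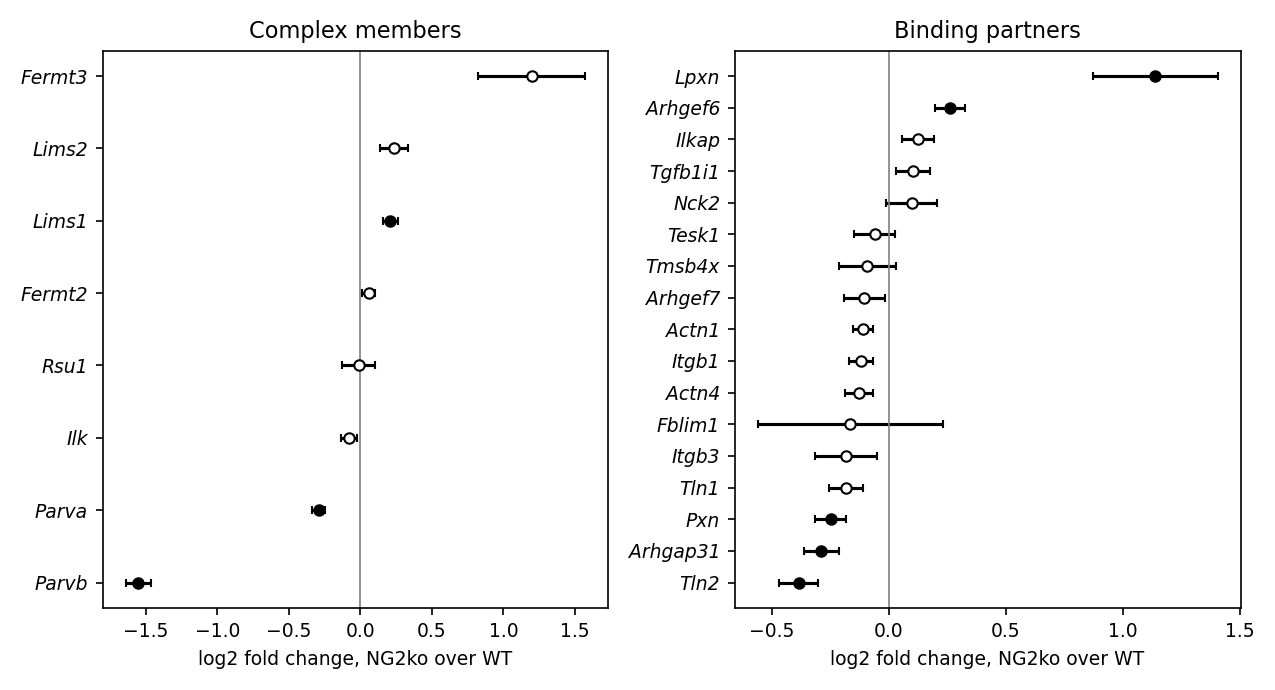
Log2 fold changes (NG2ko over WT) of the 8 tested members and of the 17 genes of binding partners, with bars of 1 standard error and filled points for genes called at an adjusted p under 0.05. Parvb lies at -1.55 and Fermt3 at 1.20, and among the partners Lpxn lies at 1.14 and Tln2 at -0.39.

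A wider list of 34 adaptor and scaffold genes of the focal adhesion, all tested, had 1 called higher (2.94%) and 7 called lower (20.6%), beside 5.45% and 6.75% of all genes. Their median log2 fold change was -0.08, and 25 of 34 were negative, beside 0.02 and 8113 of 17190 for all genes. Without NG2ko replicate 1 the number lower was 4. Among the falls were Pdlim1, a PDZ and LIM protein that binds alpha-actinin (log2 fold change -0.64, adjusted p = 0.000168), Ptk2b, the focal adhesion kinase relative Pyk2 (-0.51, adjusted p = 0.000902), and Tns1, the integrin and actin binder tensin 1 (-0.56, adjusted p = 0.000914). Ajuba, a LIM adaptor that acts on Hippo signalling, rose from 41.5 ± 0.881 to 53.7 ± 0.939 CPM (SD, n = 4; log2 fold change 0.37, adjusted p = 0.000702). These 4 calls were kept in all alternatives.

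Parvb was set beside the genes around it on chromosome 15. Samm50, a subunit of the mitochondrial outer membrane import machinery, ends 14776 bases before Parvb starts, and had 63.4 ± 0.808 CPM in NG2ko and 67.1 ± 3.42 CPM in WT (SD, n = 4), a log2 fold change of -0.08 (adjusted p = 0.372). Its NG2ko libraries, at 62.4 to 64.3 CPM, lay narrowly below its WT libraries, at 64.8 to 72.2 CPM, and Samm50 was not called. On the other side, beyond Parvg, Shisal1 (chr15:84379203-84447097, minus strand), a Shisa-like membrane protein gene 63515 bases from the end of Parvb, had 2.59, 3.65, 3.03 and 3.15 CPM in NG2ko and 8.46, 8.83, 6.9997 and 6.89 CPM in WT. Shisal1 was thus lower in every NG2ko library, at 39.8% of WT (log2 fold change -1.33, standard error 0.14, adjusted p = 0.000242), and ranked 58 of the 1160 falls. The lipid enzyme genes Pnpla5, at 0 in every library, and Pnpla3, at or near 0, had too few counts to be tested. In a window of 1 Mb on each side, chosen after values had been seen, 4 of the 24 other tested genes were called (16.7%, beside 12.2% of all genes). These were Shisal1 and Pacsin2 (-0.24, adjusted p = 0.0042) lower, and Scube1 (1.01, adjusted p = 0.0039) and Fbln1 (0.69, adjusted p = 0.00536) higher.

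**Figure D5:**
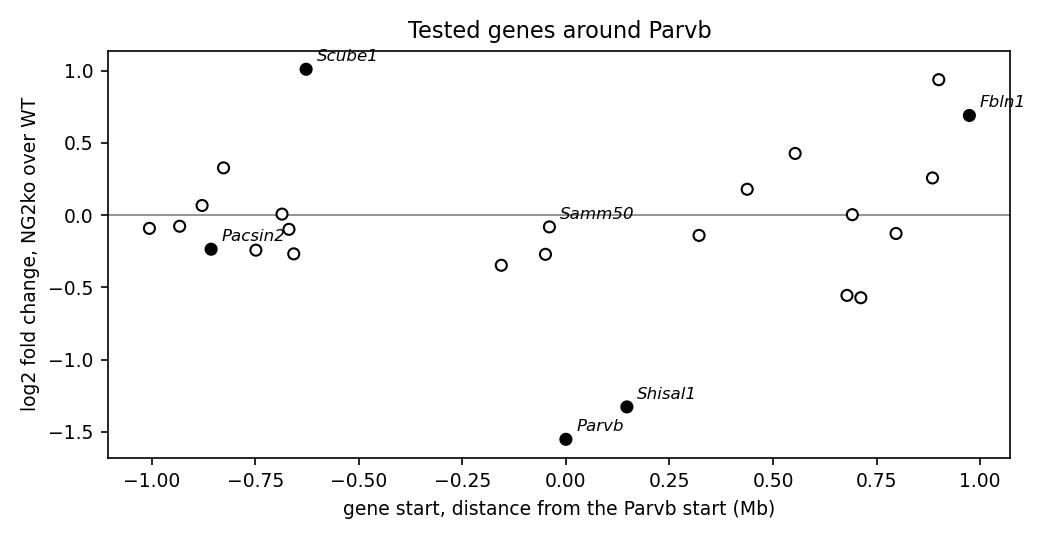
Log2 fold change (NG2ko over WT) of each tested gene within 1 Mb of Parvb against the distance of its start from the Parvb start, with filled points for called genes. Parvb at -1.55 and Shisal1 at -1.33 are the lowest points, and Samm50 at -0.08 lies near 0.

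The genes whose pattern over the 8 libraries was most like that of Parvb were found by the mean absolute difference in log2 CPM, each gene being centred on its own mean. They were Gzme, a granzyme gene (difference 0.10, 7.78 CPM in NG2ko and 21.0 CPM in WT), Eva1c, a membrane protein gene (0.11, 0.914 and 2.69 CPM), Il18rap, a subunit of the interleukin 18 receptor (0.11, 2.68 and 7.35 CPM), Serpinb9b, a serine protease inhibitor gene (0.13, 17.0 and 41.7 CPM), and Cpa4, a carboxypeptidase gene (0.14, 9.16 and 24.2 CPM). Because this measure looks for the same difference between genotypes, their log2 fold changes of -1.55 to -1.29 are a description.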

How the data were processed

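RNA was measured in 8 libraries, 4 NG2ko and 4 WT, grouped by the genotype and number in the sample labels. Per the methods, adapter-bearing and poor reads were discarded, FastQC was run, HISAT2 aligned the rest to Ensembl's release 101 mouse genome, and StringTie assemblies were merged with gffcompare. The deposited table holds whole-number counts per gene, not normalized, whose counter is not given in the sources used here, and FPKM made by the authors with StringTie. No sample column was left unused.

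Counts were filtered with filterByExpr (count minimum 10), scaled by TMM and tested in edgeR 4.0.16 under R 4.3.3 with the robust quasi-likelihood test, no term but genotype, and p-values adjusted by Benjamini-Hochberg over 17190 genes, with calls at 0.05. Where groups hold 4 libraries, p-values measure the spread between these libraries, whose separate animals are not stated. The code was tested on simulated data. Standard errors are the absolute log2 fold change over the square root of the F statistic. FPKM was used for levels between genes. CPM are TMM-scaled, and patterns used log2 CPM with a prior count of 2. Libraries of a group differed by 41.8 to 72.4 chi-square per degree of freedom, so none was a copy of another. This measure cannot tell separate animals from repeat cultures of the same animal or pool.

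Named were the 10 members, Cspg4, every binding partner, of the scaffold list up to 4 called genes in each direction with the smallest p, the listed neighbours of Parvb, and the 5 genes (Gm and Rik models left out) with the pattern nearest to Parvb. A single-gene result under this rule is not reported here. Pacsin2, Scube1, Fbln1, Taf10, Rrp8, Trpt1 and the marker genes named were chosen after values were seen. The members and lists were chosen with earlier results of these data known. Alternatives were a replicate block, DESeq2 1.42.0, upper-quartile scaling, no filter, a stricter filter (CPM of at least 1 in 4 libraries), limma-voom (limma 3.58.1), shares by counts, and each library left out. Promoters came from RefSeq on GRCm38.p6, transcripts for shared stretches from GENCODE M21. Figures used matplotlib 3.10.9 under Python 3.11.15.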

Additional observations from a re-analysis of the deposited data

Results flagged for a closer look

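In 8 of 90 groups of 4 libraries examined, 1 library stood far from the others relative to the range of its group. Each flagged value was the CPM of a named gene. Chance gives about 1 in 20 such groups. Parvb in WT replicate 4 was 11.87 CPM while the other WT libraries had 12.54 to 12.64 CPM, a gap far smaller than the distance to the NG2ko libraries. WT replicate 4 was also low for Lpxn, at 0.4357 CPM beside 0.6194 to 0.6428 CPM, and for Fblim1, at 10.41 CPM beside 24.21 to 26.07 CPM. It was the WT library with any Pnpla3 reads, at 0.1245 CPM. NG2ko replicate 4 was low for the integrin genes, with Itgb1 at 917.3 CPM beside 968.7 to 977.2 CPM and Itgb3 at 26.88 CPM beside 39.95 to 41.98 CPM, and had 0 CPM of Pnpla3 beside 0.04927 to 0.05933 CPM. Ajuba in NG2ko replicate 3 was 52.34 CPM beside 54.11 to 54.38 CPM.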

How the results depend on the processing

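The log2 fold changes of Parvb, Parva, Lims1, Lims2, Ilk, Fermt2 and Fermt3 kept their direction in all 14 alternatives. With libraries left out in turn, the log2 fold change ranged from -0.096 to 0.0804 for Rsu1, from -0.11 to 0.0282 for Tesk1 and from -0.399 to 0.0692 for Fblim1. Rsu1 changed sign with the replicate block (0.0063), with limma-voom (0.0077) and without WT replicate 3 (0.0478) or 4, as did Tesk1 without WT replicate 4 and Fblim1 without NG2ko replicate 2, and the cause was not tested. Over the libraries left out in turn, binding partners called higher ranged from 0 to 2 and lower from 1 to 4, scaffold genes called lower from 4 to 9, and all genes called from 1454 to 1976, with fewer libraries in each fit. With the stricter filter 1 partner was called higher, since Lpxn was not tested. DESeq2, run without the block, called 2782 genes against 2097, and 2 partners higher. By counts in place of FPKM, the share of Parvb among parvins was 1.33% in NG2ko and 3.14% in WT. Whether replicate numbers pair the libraries was not settled. Same-numbered libraries had deviations correlated only weakly, by 0.001 to 0.0441, yet 3 of 4 NG2ko libraries matched their own number best. With the replicate block 1815 genes were called, 0 partners were called higher by edgeR (2 at an unadjusted p under 0.05) and 2 lower, and 8 scaffold genes lower, Pxn (adjusted p = 0.0531), Lpxn (0.0585) and Arhgef6 (0.0581) being lost. Depth limits Parvg and Fermt1, and overlap with Taf10 limits Ilk.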
